A study of Mus musculus with 9 samples.

Results

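The expression of 9 genes of Leydig cell steroid synthesis (Lhcgr, Nr5a1, Star, Cyp11a1, Hsd3b1, Hsd3b6, Cyp17a1, Hsd17b3 and Insl3) was examined in mouse testis RNA. The genes were selected by symbol, with earlier results of these data known, and 8 of the 9 were analysed under their own symbol among 38685 rows. Testicular RNA came from male C57BL/6 mice with 3 genotypes, wildtype (Prm2+/+), heterozygous (Prm2+/-) and Prm2-deficient (Prm2-/-), with 3 samples each. Prm2 encodes protamine-2, a protein that compacts DNA in the sperm head, and the line was made by CRISPR/Cas9 editing in oocytes, so every cell of the animal carries the allele. The tunica albuginea was removed before extraction, and the age of the animals used for RNA is not given in the sources used here. The comparison asks whether the genes of the hormone-producing cell beside the seminiferous tubules differ when a protein of the germ cells is missing.

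Leydig cells lie between the seminiferous tubules and are the main source of testosterone. Luteinizing hormone binds its receptor, LHCGR, and raises cAMP in the cell. STAR then moves cholesterol into the mitochondrion, CYP11A1 cleaves its side chain to give pregnenolone, and 3beta-hydroxysteroid dehydrogenase (HSD3B1 and HSD3B6 in the mouse testis), CYP17A1 and HSD17B3 carry the product on to testosterone. NR5A1 (SF-1) is a nuclear receptor that drives many of these genes. INSL3 is a peptide hormone of the same cell, needed for descent of the testis.

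For 2 of the genes the sequence itself limits what a short 3′-end read can be assigned to. Insl3 (chromosome 8, 71689214 to 71690575, plus strand, GRCm38) lies wholly within Jak3 (chromosome 8, 71676296 to 71690575, plus strand), and a protein-coding Jak3 transcript ends at the same base as Insl3. The coding part of Jak3, a kinase of cytokine receptors in blood cells, ends at 71688144, before Insl3 begins. Of 451 windows of 50 bases in the last 500 bases of the Insl3 transcript, 355 (78.7%) also lie in a Jak3 transcript. The stretch shown first below is coding sequence of Insl3 that is also found in Jak3. For the paralogs Hsd3b1 and Hsd3b6, the last 30 coding bases before the stop codon are shown, with capitals at the 4 positions where they differ. The Hsd3b6 stretch also occurs in Hsd3b2 and Hsd3b3, and the Hsd3b1 stretch in no other annotated gene.
Insl3, chr8:71690333-71690362, plus strand: cagcaagacctgttgggtctgtgtccccac
Hsd3b1, chr3:98852555-98852584, minus strand: cacagggagaTaTtggacacaaagtGCcag
Hsd3b6, chr3:98805863-98805892, minus strand: cacagggagaCaCtggacacaaagtCTcag

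Across the end of the Hsd3b6 transcripts, 159 of 452 windows (35.2%) occur in another gene, against 0 of 453 for Hsd3b1. Values under Hsd3b6 may therefore hold reads of its copies, or lack reads given to them. The rows of Hsd3b2 and Hsd3b3 held at most 4.53 normalized counts in any library. Cyp11a1 overlaps the predicted gene Gm17322 on the same strand, with 58 of 1192 windows (4.87%) shared. Nr5a1 overlaps Nr5a1os on the opposite strand. The ends of Lhcgr, Star, Cyp17a1 and Hsd17b3 shared no window with another gene.

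The libraries held between 3629929 and 4490411 counts each. Replicate 3 of Prm2+/+ stood apart from the others. Among genes whose median over the other 8 libraries was at least 20 normalized counts, 463 of 11865 (3.90%) lay under 1/10 of that median in this library, against 68 to 156 genes in each other library. Values without it are therefore given beside some of the results, but not for every gene named. Prm2 itself did not mark the genotypes. Its normalized count was 33046 ± 5732 in Prm2+/+, 31890.5 ± 2287 in Prm2+/- and 37810 ± 4344 in Prm2-/- (SD, n = 3 each). A 3′-end tag outside the edited stretch would not show the edit, and its position is not given in the sources used here, so genotypes are as labelled.

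The defining markers of Leydig cells were unequal in level. Cyp17a1, Cyp11a1 and Star lay above 96.0%, 82.4% and 80.4% of the 14893 genes tested, ranked by mean normalized count. Nr5a1 lay above 24.7% of them, and Lhcgr was too low to be tested. The adrenal cortex makes steroids with some of the same enzymes, and 3 of its 5 marker genes, Mc2r, Cyp11b1 and Cyp11b2, were listed at 0 in all 9 libraries. The other two were detected at a low level and not tested, Cyp21a1 at up to 5.52 and Akr1b7 at up to 7.31 normalized counts. The mean of Cyp21a1 over the 9 libraries (3.53) was of the order of that of Lhcgr (2.81). Normalized counts compare libraries and not genes. Divided by the length of all annotated exons, Cyp17a1 had the highest level, at 424 ± 45.4 normalized counts per kilobase (SD over 9 libraries). Hsd3b6 (108 ± 26.2) and Hsd17b3 (104 ± 26.0) came next and did not differ beyond their spread, followed by Hsd3b1 (76.5 ± 14.6), Star (64.3 ± 13.1) and Cyp11a1 (62.4 ± 9.60), each within the spread of its neighbour. Nr5a1 (5.93 ± 2.66) and Lhcgr (0.367 ± 0.354) were the lowest on this scale. Reads from the 3′ end of a transcript need not scale with its length, so this order depends on the division and is a description. Without the division, Cyp11a1 (mean 299.7 normalized counts) and Star (264.6) lay above Hsd3b6 (195.3), Hsd17b3 (144.5) and Hsd3b1 (142.0).

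None of the 7 members that could be tested passed the threshold in any comparison of genotypes (limma, Benjamini-Hochberg adjusted p under 0.05 over all genes tested and a log2 fold change beyond 0.5). Of 14893 genes, 27 (0.181%) passed between Prm2-/- and Prm2+/+, 12 (0.0806%) between Prm2+/- and Prm2+/+, and 26 (0.175%) between Prm2-/- and Prm2+/-. At an unadjusted p under 0.05, limma found 0 of the 7 members in each comparison, against 7.33%, 4.24% and 5.44% of all genes. edgeR and DESeq2 also called 0 members in each comparison. At an unadjusted p under 0.05 each found 1, Hsd3b6 between Prm2-/- and Prm2+/-, and 0 in the other comparisons. Between Prm2-/- and Prm2+/-, 769 of 14893 genes had such a p in edgeR and 767 of 24874 in DESeq2. Without replicate 3 of Prm2+/+ limma called 0 members, and 1 of the 7 had an unadjusted p under 0.05 in each comparison, Cyp17a1 between Prm2+/- and Prm2+/+ and Hsd3b6 in the others. In that fit 8.37% of all 15313 genes tested had such a p between Prm2-/- and Prm2+/+, 4.21% between Prm2+/- and Prm2+/+, and 8.29% between Prm2-/- and Prm2+/-. In a bulk sample, fewer cells of a type and less RNA per cell cannot be told apart, and this holds for each value below. The labels give 3 samples per genotype without saying how they relate, so the tests measure the spread between these samples.

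**Figure D1:**
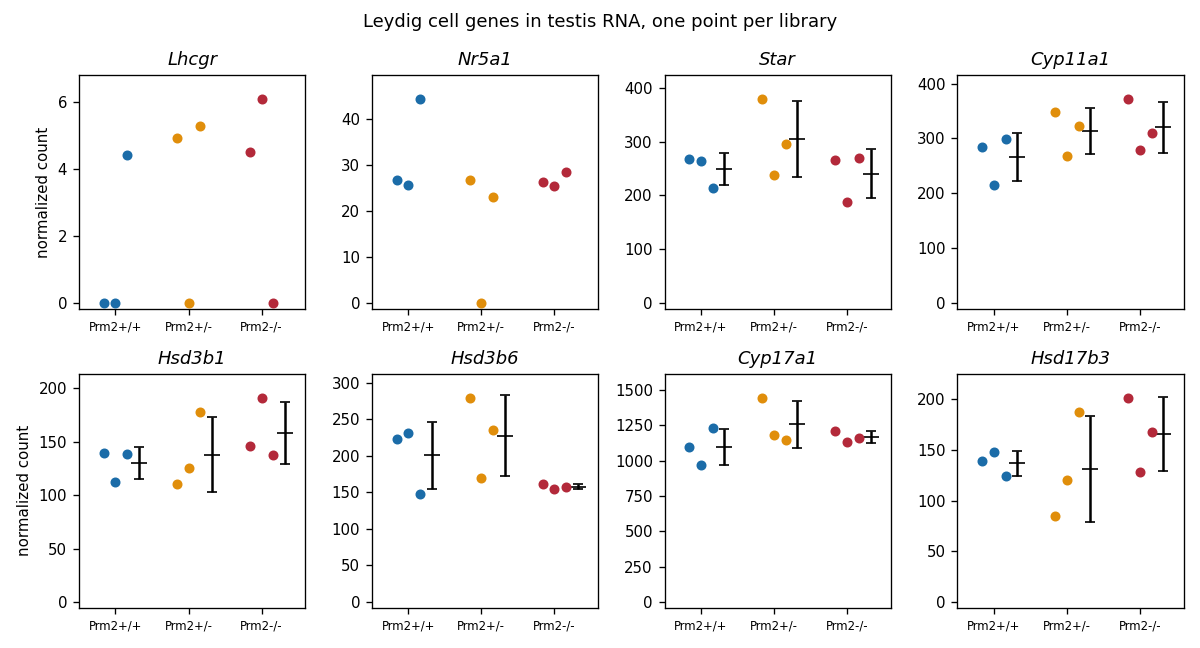
Normalized count (vertical axis, starting at 0) of 8 Leydig cell genes in each library, by genotype, with the mean and SD of 3 libraries as a bar beside the points except for Lhcgr and Nr5a1, which are listed at 0 in some libraries. Libraries of the genotypes overlap for each gene, apart from Hsd3b6, whose Prm2-/- libraries (154 to 161) all lie below the Prm2+/- libraries (169 to 279).

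Lhcgr (ENSMUSG00000024107, chromosome 17, 88716481 to 88791990, minus strand) encodes the receptor for luteinizing hormone. It was listed at 0, 0 and 4.42 normalized counts in Prm2+/+, at 4.94, 0 and 5.30 in Prm2+/-, and at 4.53, 6.09 and 0 in Prm2-/-. Each genotype had at least 1 library at 0, and none reached 10, so the gene did not pass the filter on low counts and was not tested. A difference between genotypes was not detectable at this depth.

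Nr5a1 (ENSMUSG00000026751, chromosome 2, 38692656 to 38714542, minus strand) was measured at 26.6, 25.7 and 44.2 normalized counts in Prm2+/+ and at 26.3, 25.4 and 28.5 in Prm2-/-. In Prm2+/- it was 26.7 and 23.0 in replicates 1 and 3, but was listed at 0 in replicate 2. Of the 9 libraries, 7 lay between 23.0 and 28.5. The log2 fold change of Prm2+/- against Prm2+/+ was -1.88 ± 1.13 (SE, 95% interval -4.50 to 0.74, limma, adjusted p = 0.842), and without that library it was -0.32 ± 0.27. Among tested genes with a median of at least 20 in the other libraries, 46 were at 0 in replicate 2 of Prm2+/-. Each other library had 22 to 63 such genes, apart from replicate 3 of Prm2+/+ with 233.

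Star (ENSMUSG00000031574, chromosome 8, 25806555 to 25815982, plus strand), which brings cholesterol into the mitochondrion, showed 268, 264 and 214 normalized counts in Prm2+/+. The Prm2+/- libraries gave 379, 238 and 296 and the Prm2-/- libraries 265, 188 and 269. The highest value belonged to Prm2+/- replicate 1 and the lowest to Prm2-/- replicate 2. The log2 fold change of Prm2-/- against Prm2+/+ was -0.06 ± 0.21 (SE, 95% interval -0.54 to 0.43, limma, adjusted p = 0.959), and that of Prm2+/- against Prm2+/+ was 0.27 ± 0.21 (-0.21 to 0.76, adjusted p = 0.842).

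Cyp11a1 (ENSMUSG00000032323, chromosome 9, 58006411 to 58027023, plus strand), the side chain cleavage enzyme, gave 284, 215 and 298 normalized counts in Prm2+/+, 349, 268 and 323 in Prm2+/-, and 371, 279 and 309 in Prm2-/-. The genotypes overlapped, although the means of Prm2+/- (313 ± 41.6) and Prm2-/- (319.9 ± 47.0) lay above that of Prm2+/+ (266 ± 44.4; SD, n = 3 each). The log2 fold changes against Prm2+/+ were 0.24 ± 0.17 for Prm2+/- (95% interval -0.16 to 0.64) and 0.27 ± 0.17 for Prm2-/- (-0.13 to 0.67). Neither passed the test (limma, adjusted p = 0.842 and 0.746).

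Hsd3b1 and Hsd3b6 encode 2 forms of the enzyme that turns pregnenolone into progesterone. Hsd3b1 (ENSMUSG00000027871, chromosome 3, 98852194 to 98859794, minus strand) was measured at 139.7, 113 and 138 normalized counts in Prm2+/+, at 111, 125 and 178 in Prm2+/-, and at 146, 191 and 137 in Prm2-/-. The genotypes overlapped, and the log2 fold change of Prm2-/- against Prm2+/+ was 0.27 ± 0.21 (SE, 95% interval -0.21 to 0.75, limma, adjusted p = 0.756). Hsd3b6 (ENSMUSG00000027869, chromosome 3, 98805504 to 98814443, minus strand) gave 222, 231 and 148 in Prm2+/+, 279, 169 and 235 in Prm2+/-, and 161, 154 and 157 in Prm2-/-. The Prm2-/- libraries lay close together and below each Prm2+/- library, while replicate 3 of Prm2+/+ was the lowest of all 9.

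Hsd3b6 was the 1 member of 7 whose libraries did not overlap between Prm2-/- and Prm2+/-, and 14.7% of all genes tested had such a separation. Its log2 fold change there was -0.50 ± 0.22 (SE, 95% interval -1.01 to 0.02, limma, adjusted p = 0.918). Against Prm2+/+ it was -0.32 ± 0.22 (-0.84 to 0.20, adjusted p = 0.751), and leaving out replicate 3 of Prm2+/+ gave -0.52 ± 0.20 (-0.99 to -0.06, adjusted p = 0.557). None of the 7 members separated Prm2-/- from Prm2+/+ or Prm2+/- from Prm2+/+, where 14.0% and 9.44% of all genes did. The 2 genes did not keep 1 ratio. Hsd3b6 over Hsd3b1 was 1.59, 2.06 and 1.07 in Prm2+/+, 2.52, 1.35 and 1.32 in Prm2+/-, and 1.11, 0.809 and 1.15 in Prm2-/-. In this ratio the libraries of Prm2-/- were below those of Prm2+/- and overlapped those of Prm2+/+. Hsd3b6 is its numerator, so this is not a separate observation, and the ratio was chosen after values were seen.

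Cyp17a1 (ENSMUSG00000003555, chromosome 19, 46667165 to 46673172, minus strand), which makes androgen precursors from progestins, varied least of the members between libraries, with a coefficient of variation of 10.7% over the 9 libraries. It reached 1094, 972 and 1228 normalized counts in Prm2+/+, 1442, 1181 and 1143 in Prm2+/-, and 1209.9, 1131 and 1161 in Prm2-/-. The highest library was replicate 1 of Prm2+/-, as for Star and Hsd3b6. The log2 fold change of Prm2-/- against Prm2+/+ was 0.09 ± 0.12 (SE), and its 95% interval of -0.18 to 0.37 lay within 0.5 either way (limma, adjusted p = 0.831). For Prm2+/- against Prm2+/+ it was 0.19 ± 0.12 (-0.08 to 0.46, adjusted p = 0.842). Leaving out replicate 3 of Prm2+/+ gave 0.28 ± 0.11 (0.01 to 0.54, limma, adjusted p = 0.976), an interval that reached beyond 0.5.

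Hsd17b3 (ENSMUSG00000033122, chromosome 13, 64058266 to 64089230, minus strand), the last enzyme on the way to testosterone, gave 139, 148 and 124 normalized counts in Prm2+/+, 85.0, 121 and 187 in Prm2+/-, and 201, 128 and 168 in Prm2-/-. Its libraries spread 2.36-fold from lowest to highest, and both the lowest and the second highest belonged to Prm2+/-. The log2 fold change of Prm2-/- against Prm2+/+ was 0.25 ± 0.29 (SE, 95% interval -0.41 to 0.91, limma, adjusted p = 0.812). Hsd17b3 was lowest in the library where Star, Cyp17a1 and Hsd3b6 were highest.

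**Figure D2:**
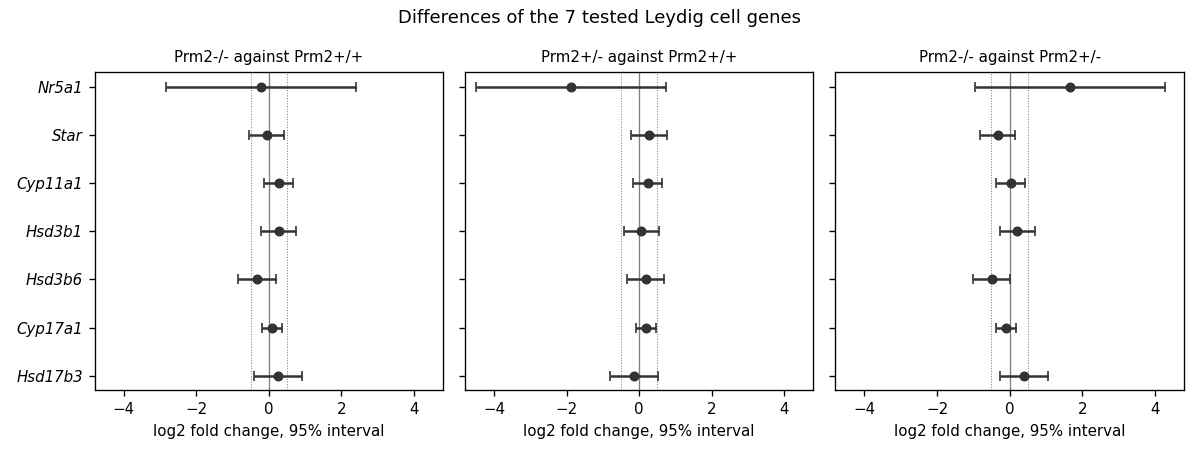
Log2 fold change (points) with 95% interval (bars) of the 7 tested genes in the 3 comparisons of genotypes; dotted lines stand at -0.5 and 0.5. Each interval includes 0, that of Cyp17a1 is the narrowest, and that of Nr5a1, listed at 0 in 1 library, is the widest.

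Between Prm2-/- and Prm2+/+, 4 of the 7 members had a log2 fold change above 0 and 3 below, with a median of 0.09, beside a median of 0.02 over all genes tested. For Prm2+/- against Prm2+/+ the counts were 5 above and 2 below, with a median of 0.18 beside 0.01. Between Prm2-/- and Prm2+/- they were 4 and 3, with a median of 0.03 beside -0.01. The summed normalized count of the members ranged from 1969 to 2199 in Prm2+/+, from 2102 to 2676 in Prm2+/- and from 2103 to 2385 in Prm2-/-. Libraries of 1 genotype differed as well. In Prm2-/- replicate 2, 6 of the 7 lay below their own median of 9 libraries, and in Prm2+/- replicates 1 and 3, 5 of the 7 lay above it.

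Insl3 was not analysed here under its own symbol. The locus that holds it (chromosome 8, labelled Jak3, ENSMUSG00000031805) was measured at 3550.1 and 3856 normalized counts in replicates 1 and 2 of Prm2+/+, but at 38.7 in replicate 3. It was 3221, 3665 and 3583 in Prm2+/- and 4408, 3577 and 3824 in Prm2-/-. The 1 low library was thus 93.7-fold below the median of the other 8, which all lay between 3221 and 4408. Because of that library the log2 fold change of Prm2-/- against Prm2+/+ was 2.26 ± 1.55 (SE; limma, adjusted p = 0.751), and without it 0.08 ± 0.10 (95% interval -0.15 to 0.32; adjusted p = 0.851). For Prm2+/- against Prm2+/+ it was -0.09 ± 0.10 (-0.32 to 0.15) without that library. Which share of the counts came from Insl3 and which from Jak3 cannot be told apart in these values.

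**Figure D3:**
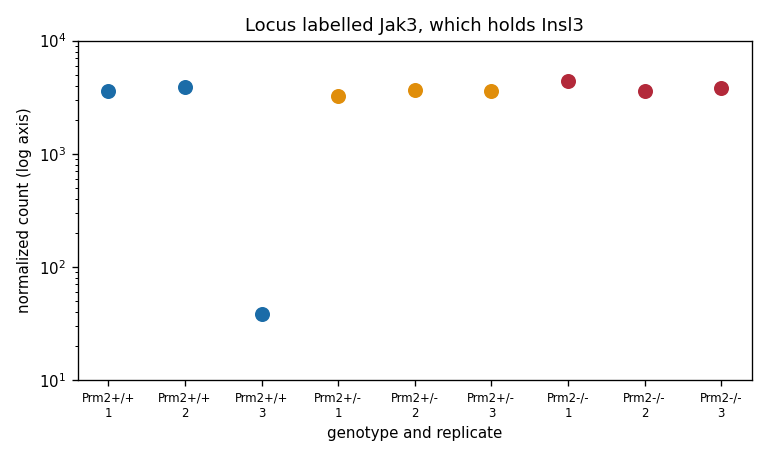
Normalized count (log axis) of the locus labelled Jak3, within which Insl3 lies, in each of the 9 libraries; colours mark the genotypes. Replicate 3 of Prm2+/+ (38.7) lies far below the other 8 libraries, which sit between 3221 and 4408.

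Other genes of the steroid pathway were taken from 7 lists with 89 genes in all, of which 86 were found and 70 tested. None passed the threshold in limma or edgeR in any comparison. DESeq2 called Prlr between Prm2-/- and Prm2+/+ and between Prm2-/- and Prm2+/-. In these comparisons DESeq2 called 140 and 113 of 24874 genes, more than limma did. At an unadjusted p under 0.05 limma found 6 of the 70 (8.57%) between Prm2-/- and Prm2+/+, 1 higher and 5 lower in Prm2-/-, close to the 7.33% of all genes. The median log2 fold change of the 70 genes was 0.11 there, against 0.02 over all genes. Without replicate 3 of Prm2+/+ there were 8 of the 70 (11.4%), 4 higher and 4 lower, against 8.37% of all genes in that fit.

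**Figure D4:**
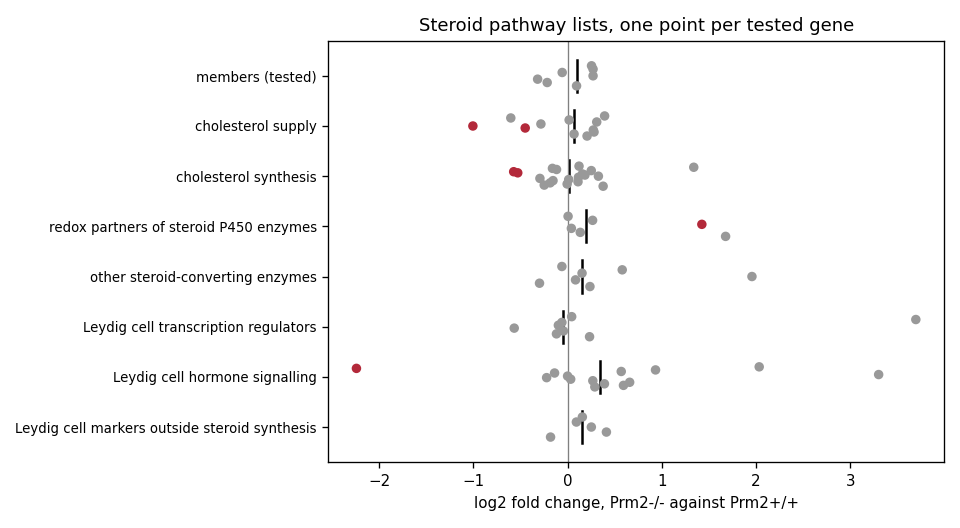
Log2 fold change of Prm2-/- against Prm2+/+ (horizontal axis) for each tested gene of the members and of 7 steroid pathway lists; red points have an unadjusted p under 0.05 and black bars mark the median of a list. The red points are Lipe and Scarb1, Idi1 and Nsdhl, Fdx1, and Prlr, and none passed the adjusted threshold.

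Genes of cholesterol supply (11 of 11 tested) had 0 calls and 2 unadjusted p under 0.05, both lower in Prm2-/-. Scarb1, the receptor that takes up cholesteryl esters from high-density lipoprotein, was 523, 502 and 545 normalized counts in Prm2+/+, 396, 407 and 539.9 in Prm2+/-, and 452, 339.9 and 363 in Prm2-/-. The libraries of Prm2-/- lay below those of Prm2+/+ (log2 fold change -0.45 ± 0.15, SE; limma, adjusted p = 0.597). Of all genes tested, 14.0% separated these groups in either direction. Lipe, the hormone-sensitive lipase that frees stored cholesterol, was 331, 240.0 and 337 in Prm2+/+, 295, 322 and 289.8 in Prm2+/-, and 256, 112 and 114 in Prm2-/-. These 2 genotypes overlapped, as replicate 1 of Prm2-/- lay above replicate 2 of Prm2+/+. The log2 fold change of Lipe, Prm2-/- against Prm2+/+, was -1.01 ± 0.31 (SE; limma, adjusted p = 0.545). Without replicate 3 of Prm2+/+ it was -0.92 ± 0.36 (limma, adjusted p = 0.574). Leaving out replicate 1 of Prm2-/- gave -1.40 ± 0.17 (limma, adjusted p = 0.0417). That library was picked after values were seen, and dropping the highest value of the lower group can only enlarge the change. The most abundant other genes of the list, Dbi and Npc2, had log2 fold changes of 0.39 ± 0.30 and 0.02 ± 0.12 between Prm2-/- and Prm2+/+, with all 9 libraries.

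Genes of cholesterol synthesis (19 of 21 tested) had 0 calls and 2 unadjusted p under 0.05, both lower in Prm2-/-. Nsdhl was at 42.7 ± 4.48 normalized counts in Prm2+/+ and 29.7 ± 6.86 in Prm2-/- (SD, n = 3 each). Idi1 was at 88.6 ± 21.8 and 58.4 ± 6.90. For both genes the libraries of Prm2-/- and Prm2+/+ did not overlap, as for 14.0% of all genes tested. The adjusted p in limma was 0.630 and 0.649. Without replicate 3 of Prm2+/+, Nsdhl had a log2 fold change of -0.60 ± 0.22 (SE; limma, unadjusted p = 0.0293). Idi1 then had -0.38 ± 0.20 (limma, unadjusted p = 0.105). With all 9 libraries, Prm2-/- against Prm2+/- gave -0.58 ± 0.20 for Nsdhl and -0.80 ± 0.23 for Idi1 (SE; limma, adjusted p = 0.870 and 0.714). That comparison shares the Prm2-/- libraries with the one above. Fdft1, Cyp51 and Hmgcs1, the most abundant of the list, had log2 fold changes of -0.16 ± 0.10, -0.01 ± 0.10 and -0.12 ± 0.11 between Prm2-/- and Prm2+/+.

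Among the redox partners of the steroid P450 enzymes (6 of 6 tested, 0 called), Fdx1 encodes ferredoxin, which passes electrons to CYP11A1. It was at 254, 237 and 57.5 normalized counts in Prm2+/+, at 455, 424 and 452 in Prm2+/-, and at 504, 314 and 431 in Prm2-/-. The 3 libraries of Prm2+/+ lay below each of the other 6, with replicate 3 the lowest. Of all genes tested, 14.0% separated Prm2-/- from Prm2+/+ and 9.44% separated Prm2+/- from Prm2+/+, in either direction. The log2 fold change of Fdx1, Prm2-/- against Prm2+/+, was 1.42 ± 0.52 (SE; limma, adjusted p = 0.617). Without replicate 3 of Prm2+/+ it was 0.73 ± 0.18 (limma, adjusted p = 0.392). For Prm2+/- against Prm2+/+ the values were 1.54 ± 0.52 (adjusted p = 0.842) and 0.85 ± 0.18 (adjusted p = 0.465). These 2 comparisons share the Prm2+/+ libraries. Cyb5a, a cytochrome b5 that aids CYP17A1, was at 2.21 in replicate 3 of Prm2+/+ and between 100.3 and 166 in the other 8, and Cyb5r3 had a log2 fold change of 0.00 ± 0.12.

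Of the genes of hormone signalling (14 of 14 tested, 0 called by limma), Prlr encodes the prolactin receptor. It was at 61.8, 177 and 147 normalized counts in Prm2+/+, at 186, 144 and 76.0 in Prm2+/-, and at 41.7, 17.3 and 19.0 in Prm2-/-. The libraries of Prm2-/- lay below each of the other 6. Of all genes tested, 14.0% separated Prm2-/- from Prm2+/+ and 14.7% separated Prm2-/- from Prm2+/-, in either direction. The log2 fold change of Prlr was -2.24 ± 0.52 against Prm2+/+ (SE; limma, adjusted p = 0.377) and -2.36 ± 0.52 against Prm2+/- (adjusted p = 0.453). DESeq2 gave -2.30 with an adjusted p of 0.00930 and -2.38 with 0.00701 for the same comparisons. These comparisons share the Prm2-/- libraries.

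**Figure D5:**
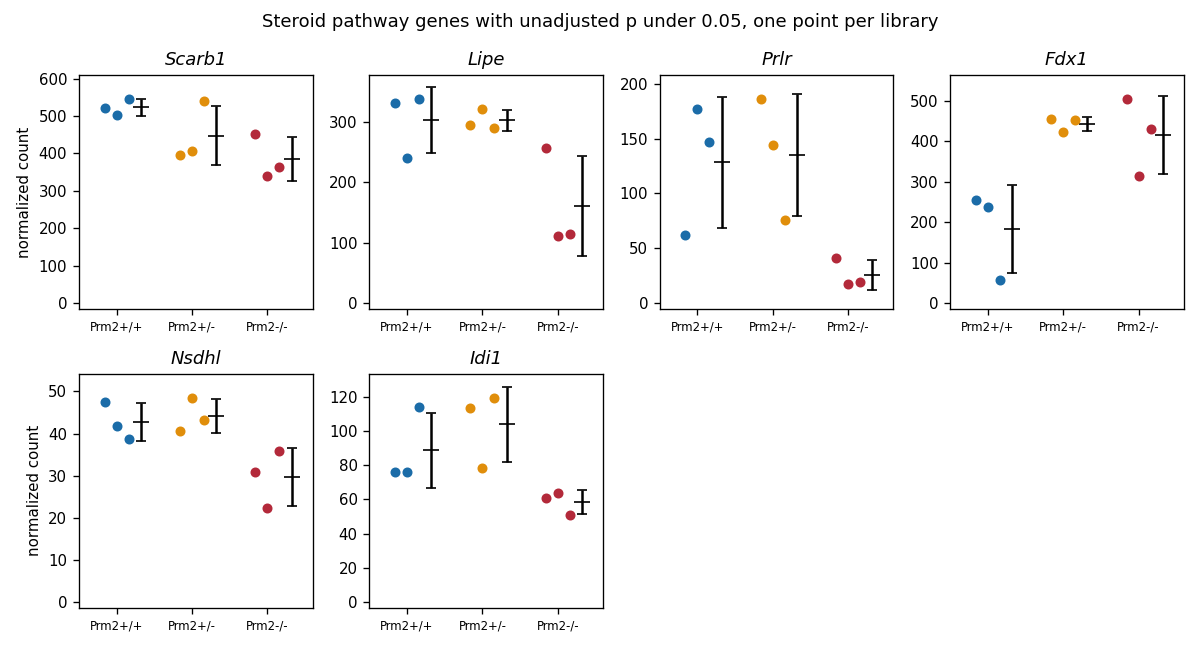
Normalized count (vertical axis from 0) in each library of the 6 pathway genes with an unadjusted p under 0.05 between Prm2-/- and Prm2+/+, with the mean and SD of 3 libraries beside the points. Prlr lies between 17.3 and 41.7 in Prm2-/- and between 61.8 and 186 elsewhere, and Fdx1 is lowest in the 3 Prm2+/+ libraries.

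Prkar1a, a regulatory subunit of protein kinase A, differed widely between libraries of the same genotype. It was at 931, 50.4 and 24.3 normalized counts in Prm2+/+ and at 1123, 40.2 and 966 in Prm2+/-, against 1205, 1192 and 807 in Prm2-/-. Gnas, the G protein subunit that couples the receptor to adenylate cyclase, was at 29.7 in 1 library of Prm2+/- and between 323 and 765 in the other 8. Prkaca had a log2 fold change of -0.22 ± 0.10 between Prm2-/- and Prm2+/+ (limma, adjusted p = 0.708). Among 11673 genes with a median of at least 20 in each set of 8 libraries, 804 (6.89%) lay under 1/10 of that median in at least 1 library.

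The remaining lists had 0 calls and 0 unadjusted p under 0.05 between Prm2-/- and Prm2+/+. Of 20 other steroid-converting enzymes 19 were found and 7 tested. The most abundant, Hsd17b4, Hsd3b7 and Sult1e1, had log2 fold changes of 0.24 ± 0.33, 0.15 ± 0.63 and 1.96 ± 1.54. Sult1e1 was listed at 0 in replicate 3 of Prm2+/+. Of the transcription regulators 8 of 11 were tested, and Creb1, Nr4a1 and Nr2f2 had log2 fold changes of -0.06 ± 0.19, 0.04 ± 0.17 and -0.12 ± 0.21. Leydig cell markers outside steroid synthesis (5 of 6 tested) gave -0.18 ± 0.18 for Ptgds, 0.25 ± 0.15 for Fabp3 and 0.41 ± 0.25 for Vcam1, the most abundant of that list.

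Markers of the other cells of the testis were counted beside these values. None of the 9 lists held a gene called by limma in any comparison, and a part of other cell types in the results above was not tested. The summed normalized count of Sertoli cell markers was 2548 to 3365 in Prm2+/+, 2549 to 2667 in Prm2+/- and 2839 to 3096 in Prm2-/-, with Clu, Cldn11 and Sox9 at log2 fold changes of 0.02 ± 0.14, 0.04 ± 0.10 and -0.09 ± 0.17 between Prm2-/- and Prm2+/+. Of the 8 Sertoli cell markers tested, 5 were above 0 and 3 below, with a median of 0.01 and none at an unadjusted p under 0.05 in limma. Wt1 gave 1.05 ± 1.01, with libraries from 18.8 to 147.8 normalized counts, and Gata1 gave 0.40 ± 0.24. The Sertoli cell genes Amh and Fshr were listed at 0. Peritubular myoid markers had 2 of 5 genes at an unadjusted p under 0.05, Acta2 (-0.27 ± 0.09) and Cnn1 (-0.76 ± 0.22), both lower in Prm2-/-, while Actg2 and Myh11 gave -0.11 ± 0.15 and -0.28 ± 0.17. The remaining gene, Des, gave 2.71 ± 1.24 and was listed at 0 in 2 libraries of Prm2+/+. Their sum was 701 to 792 in Prm2+/+ and 622 to 780.3 in Prm2-/-. Macrophages lie against Leydig cells, and the sum of their markers was 194 to 271 in Prm2+/+ and 238 to 295 in Prm2-/-, with Csf1r, C1qb and Mrc1 at 0.00 ± 0.16, 0.39 ± 0.28 and -0.64 ± 0.46. Adgre1, C1qa and C1qc gave 1.24 ± 0.85, 1.29 ± 1.61 and 1.84 ± 1.64, and each was listed at 0 in 1 library of Prm2+/+. Of the 8 macrophage markers 6 were tested, 4 of them above 0 and 2 below, with a median of 0.81 and none at an unadjusted p under 0.05.

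The endothelial sum was 58.0 to 80.4 in Prm2+/+ and 61.9 to 95.1 in Prm2-/-. Kdr and Cdh5 gave -0.12 ± 0.27 and 0.13 ± 0.91. Vwf gave 2.97 ± 1.16 and was listed at 0 in 2 libraries of Prm2+/+. Without replicate 3 of Prm2+/+, Vwf gave 2.18 ± 1.19 (limma, unadjusted p = 0.110). With all 9 libraries Vwf was the 1 endothelial gene with an unadjusted p under 0.05. Spermatogonia (Dazl, Stra8 and Gfra1 at 0.17 ± 0.22, 0.25 ± 0.66 and 0.06 ± 0.24) and spermatocytes (Piwil1, Sycp1 and Sycp3 at 0.08 ± 0.06, -0.07 ± 0.10 and 0.01 ± 0.27) had none. Spermatid markers, by far the most abundant, summed to 201646 to 216599.7 in Prm2+/+ and 194493 to 203632 in Prm2-/-. Among them Catsper1 was higher (0.42 ± 0.11) and Tnp1 lower (-0.12 ± 0.05) in Prm2-/- at an unadjusted p under 0.05, while Prm1 and Tnp2 gave -0.01 ± 0.07 and -0.16 ± 0.09. Adrenal cortex markers summed to at most 12.8 normalized counts in any library. Epididymal markers summed to at most 37.5, of which Rnase10 alone was tested (-0.54 ± 0.28).

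The genes whose pattern over the 9 libraries was most like the mean log2 level of the 7 tested members were Nckipsd (Pearson r = 0.985), Gm12637 (0.977), Exoc1 (0.973), 4930474H06Rik (0.972) and Zfp266 (0.971). All 5 had their lowest value in replicate 2 of Prm2+/-, the library where Nr5a1 was listed at 0. With Nr5a1 left out of the mean, the most alike were Gm11840 (0.949), Dhps (0.923), Slc35f6 (0.921), Dennd6a (0.907) and Serpinb6c (0.906), so none of the first 5 was shared. The number of genes with r over 0.9 went from 61 to 7. The points share their libraries and depth, and r over 9 libraries is given as a description.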

How the data were processed

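Testis RNA of 9 samples was measured by QuantSeq 3′-end sequencing. Per the paper and the submitters' processing notes, reads were trimmed with Trim Galore 0.4.5, mapped to GRCm38 with HISAT2 2.1, and quantified with StringTie 1.3.3, whose script made gene counts from transcript coverage. The table deposited by the authors holds a signal: counts divided, sample by sample, by a DESeq2 size factor, called normalized counts here. Dividing by the step between values gave whole counts in 100% of cases (tolerance 0.01), though for Prm2+/- replicate 1 the step lies near 1, a weaker sign. The counts come from coverage, so a gene listed at 0 may be a failed estimate.

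Normalized counts were tested as log2(value + 1) with limma 3.58.1 over all 9 samples by genotype, for 14893 genes kept by filterByExpr of edgeR 4.0.16 on the recovered counts (R 4.3.3). Fold changes are on this scale, which can understate those of low genes. For a gene listed at 0 in some libraries they can be larger than those of a count model. Vwf between Prm2-/- and Prm2+/+, for example, had 2.97 in limma, 1.43 in edgeR and 1.42 in DESeq2. Calls needed an adjusted p under 0.05 and a log2 fold change beyond 0.5. Alternatives were edgeR, DESeq2 1.42.0, TMM factors, pseudocounts of 0.5 and 5, other filters, 6 samples, the replicate block and leaving out each sample. The steps were tested on simulated data. Positions and transcript sequences are from GENCODE M21 (GRCm38), which held 38520 of the 38685 identifiers. Protein sequences were not used here, and 1 gene of a pathway list is not reported here. Columns without a sample numbered 0.

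Named genes were the members, Prm2, genes overlapping a member, the 5 genes most like the members, and from each list every called gene, each gene with an unadjusted p under 0.05 between Prm2-/- and Prm2+/+, and the 3 most abundant. The value of Lipe without 1 library, the Hsd3b2 and Hsd3b3 rows and the ratio of Hsd3b6 to Hsd3b1 were chosen after values were seen. The members and lists were chosen with earlier results of these data known.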

Additional observations from a re-analysis of the deposited data

How the results depend on the processing

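For the 7 tested members, 0 were called under each alternative in each comparison. Their direction stayed the same in all 207 values obtained without leaving out a sample. Part of these could not differ, because limma with other filters, 6 samples or the replicate block returns the same fold change. Leaving out 1 sample turned the sign of 7 of the 21 values, none of them called. Their log2 fold changes then ranged from -0.352 to 0.0276 for Nr5a1 and from -0.16 to 0.11 for Star (Prm2-/- against Prm2+/+), from -0.14 to 0.20 for Hsd3b1, -0.0253 to 0.378 for Hsd3b6 and -0.43 to 0.14 for Hsd17b3 (Prm2+/- against Prm2+/+), and from -0.0837 to 0.122 for Cyp11a1 and -0.162 to 0.00587 for Cyp17a1 (Prm2-/- against Prm2+/-). The cause was not tested.

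Pathway genes called numbered 0, but DESeq2 called 1 (Prlr) between Prm2-/- and Prm2+/+, with 9 or 6 samples, and between Prm2-/- and Prm2+/- called 1 with 9 samples and 2 (Prlr and Amhr2, the latter named after its values were seen) with 6. Leaving out 1 sample gave 0 to 1 in both comparisons, the 1 being Lipe without Prm2-/- replicate 1. Over all genes, the calls between Prm2-/- and Prm2+/+ (27) were 9 with at least 10 counts in every sample, 50 with 6 samples, 140 by DESeq2, 165 by DESeq2 with 6 samples, and 28 to 64 with 1 sample left out. Those between Prm2+/- and Prm2+/+ (12) were 21 with any count above 0, 1 with at least 10 counts, 66 by DESeq2, 62 by DESeq2 with 6 samples, and 9 to 44 with 1 sample left out. Those between Prm2-/- and Prm2+/- (26) were 11, 52, 113, 160 and 23 to 50 with at least 10 counts, 6 samples, DESeq2, DESeq2 with 6 samples and 1 sample left out.

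With the replicate block, calls over all genes were 15, 6 and 14 in the 3 comparisons, and members called 0. Deviations of same-numbered samples correlated at -0.04 to 0.04, so the numbers were not taken as pairs. With 3 samples per genotype, the 95% interval of each tested member reached beyond 0.5 on the log2 scale in at least 1 comparison, except that of Cyp17a1. Without replicate 3 of Prm2+/+ the interval of Cyp17a1 reached 0.54 between Prm2+/- and Prm2+/+.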
